A study of Mus musculus with 48 samples.

Results

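The GABA-A receptor subunit genes Gabra2, Gabra3, Gabra4, Gabra5, Gabrb1, Gabrb2 and Gabrd were followed in the medial prefrontal cortex (mPFC) of female C57BL/6J mice, 17 weeks old, by every probe that the array annotation assigned to one of these symbols. The rule found 9 probes of 7 genes among 55681 probes, and all 9 were among the 28353 probes detected in mPFC, that is, well above background on each of the 24 mPFC arrays. There were 4 groups of 6 mice: sham surgery alone (control mice), sham surgery and chronic ultra-mild stress (CUMS mice), ovariectomy alone (OVX mice), and ovariectomy followed by that stress (OVX+CUMS mice). Ovariectomy removes the ovaries, the main source of estradiol and progesterone in a female mouse, and CUMS is a schedule of mild, changing stressors. One mouse gave 1 one-colour Agilent array of mPFC and 1 of blood. All mice, the controls included, were under pentobarbital when blood was drawn and the brain was taken out, and barbiturates act on GABA-A receptors themselves. The tissue was a dissected piece of cortex, so fewer cells of a type and less RNA per cell cannot be told apart.

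GABA-A receptors are chloride channels built of 5 subunits around a pore, and they carry most of the fast inhibition in the cortex. The common form holds alpha, beta and gamma subunits and sits at synapses. The alpha subunit shapes how strongly GABA and benzodiazepines act, and the beta subunits contribute to the GABA binding site and anchor the receptor to trafficking proteins. Delta-containing receptors lie outside synapses, where they carry tonic inhibition and are strongly enhanced by neurosteroids such as the progesterone metabolite allopregnanolone. That link to ovarian steroids is why these subunits are often studied after ovariectomy and under stress.

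The subunit genes lie in clusters. By gene order in RefSeq (GRCm38.p6), Gabra2, Gabra4 and Gabrb1 share a stretch of chromosome 5 with Gabrg1, Gabrb2 lies beside Gabra6 on chromosome 11, Gabra5 lies beside Gabrg3 on chromosome 7, and Gabra3 is next to Gabrq on the X chromosome. Gabrd, on chromosome 4, has no subunit gene beside it. By their coordinates in the array files (mm9), the probes lie at chr5:71352275-71352334 and chr5:71352306-71352365 for Gabra2, chrX:69678031-69678090 and chrX:69679357-69679416 for Gabra3, chr5:71961055-71961114 for Gabra4, chr7:64663486-64663545 for Gabra5 and chr4:154759071-154759089 for Gabrd, all on the minus strand. The probes of Gabrb1 (chr5:72528086-72528145) and Gabrb2 (chr11:42445782-42445841) lie on the plus strand. The interval listed for Gabrd covers 19 of its 60 bases. Whether a probe falls in coding sequence or in an untranslated region was not looked up, because no annotation of the mm9 build was used here.

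The probes are shown where their sequence bears on how they can be read. The Gabra2 probes overlap, so they are not separate measurements of that gene; the 29 bases they share are in capitals in the last 30 bases of one and the first 30 bases of the other.
Gabra2 A_55_P2177351, last 30 bases: tTCAGCTCACTTCAATCATTGGAAACTACC
Gabra2 A_55_P2027900, first 30 bases: TCAGCTCACTTCAATCATTGGAAACTACCt
Of the Gabra3 probes, which lie apart and do not overlap, A_55_P2112772 ends in a stretch where 26 of 30 bases are purines, against 13 of 30 in the bright probe A_55_P1963463.
Gabra3 A_55_P2112772, last 30 bases: acagagaaagagacagagagacagaaagac
Gabra3 A_55_P1963463, last 30 bases: tgcaatgtttagcggctgttcattaaactc
The 3 subunits called higher after ovariectomy below were each read by 1 probe, whose first 30 bases identify it.
Gabra5 A_52_P143037: ctgtggacatttaagtccagtacgaattgc
Gabrb1 A_51_P368757: tcgcttgttttttaaccccacagattccca
Gabrb2 A_51_P227679: cttgtagcctttctgaacacacacatcatg

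Estrogen and glucocorticoid receptors bind short DNA motifs, so the letters of those motifs were searched on both strands in RefSeq promoter windows (GRCm38.p6, 250 bases before to 50 after a start). The table holds 10 windows for 6 of the 7 genes and no entry for Gabrd. The full estrogen response element GGTCANNNTGACC was in 0 of the 10 windows and in 0.07% of 32851 windows of all genes, and the glucocorticoid response element GNACANNNTGTNC was in 0 of 10 and in 0.475%. The half-site GGTCA, which is contained in the full element, was in 3 of 10 windows, 1 each of Gabra5, Gabrb1 and Gabrb2, and in 40.5% of all windows. The match of Gabra5 is shown with the half-site in capitals, read in the direction of the gene.
Gabra5, chr7:57510010-57510309, minus strand: tttcccgaagcgGGTCAgacagtagctcc
A match is a string of letters, not a bound site. The first start of Gabrb1 on the plus strand lies 387 bases before that of Gabra4 on the minus strand. RefSeq transcripts from these starts run into each other head to head and overlap at their 5′ ends. A later Gabrb1 start, at base 71699932, lies beyond the Gabra4 start at 71658308, so transcripts from it do not overlap. CpG dinucleotides numbered 25 in the promoter windows of Gabra2 and in the first of Gabrb1, 12 in that of Gabra4, 13 in that of Gabra5, 9 to 11 in those of Gabrb2 and 0 in both windows of Gabra3, against a median of 7 over all windows.

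Levels are given as the log2 processed signal of a probe minus the 75th percentile of its array, so 0 is the array's 75th percentile and 1 unit is a doubling. Probes bind with different strength, so levels were compared between groups within a probe and never between subunits. Each of 3 slides carried 8 mPFC arrays. All 6 control mice were on slide 1 beside 2 CUMS mice, slide 2 had 4 mice each of CUMS and OVX, and all 6 OVX+CUMS mice were on slide 3 beside 2 OVX mice. No slide had both control and OVX+CUMS mice, and results are given with the slide as a block as well. The 75th percentile itself was 571.6 to 688.8 in arbitrary units over the mPFC arrays, 31551 to 38053 probes per array were well above background, and no probe was saturated. The SD of the log2 difference between arrays of 1 group was 0.188 to 0.471.

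**Figure D1:**
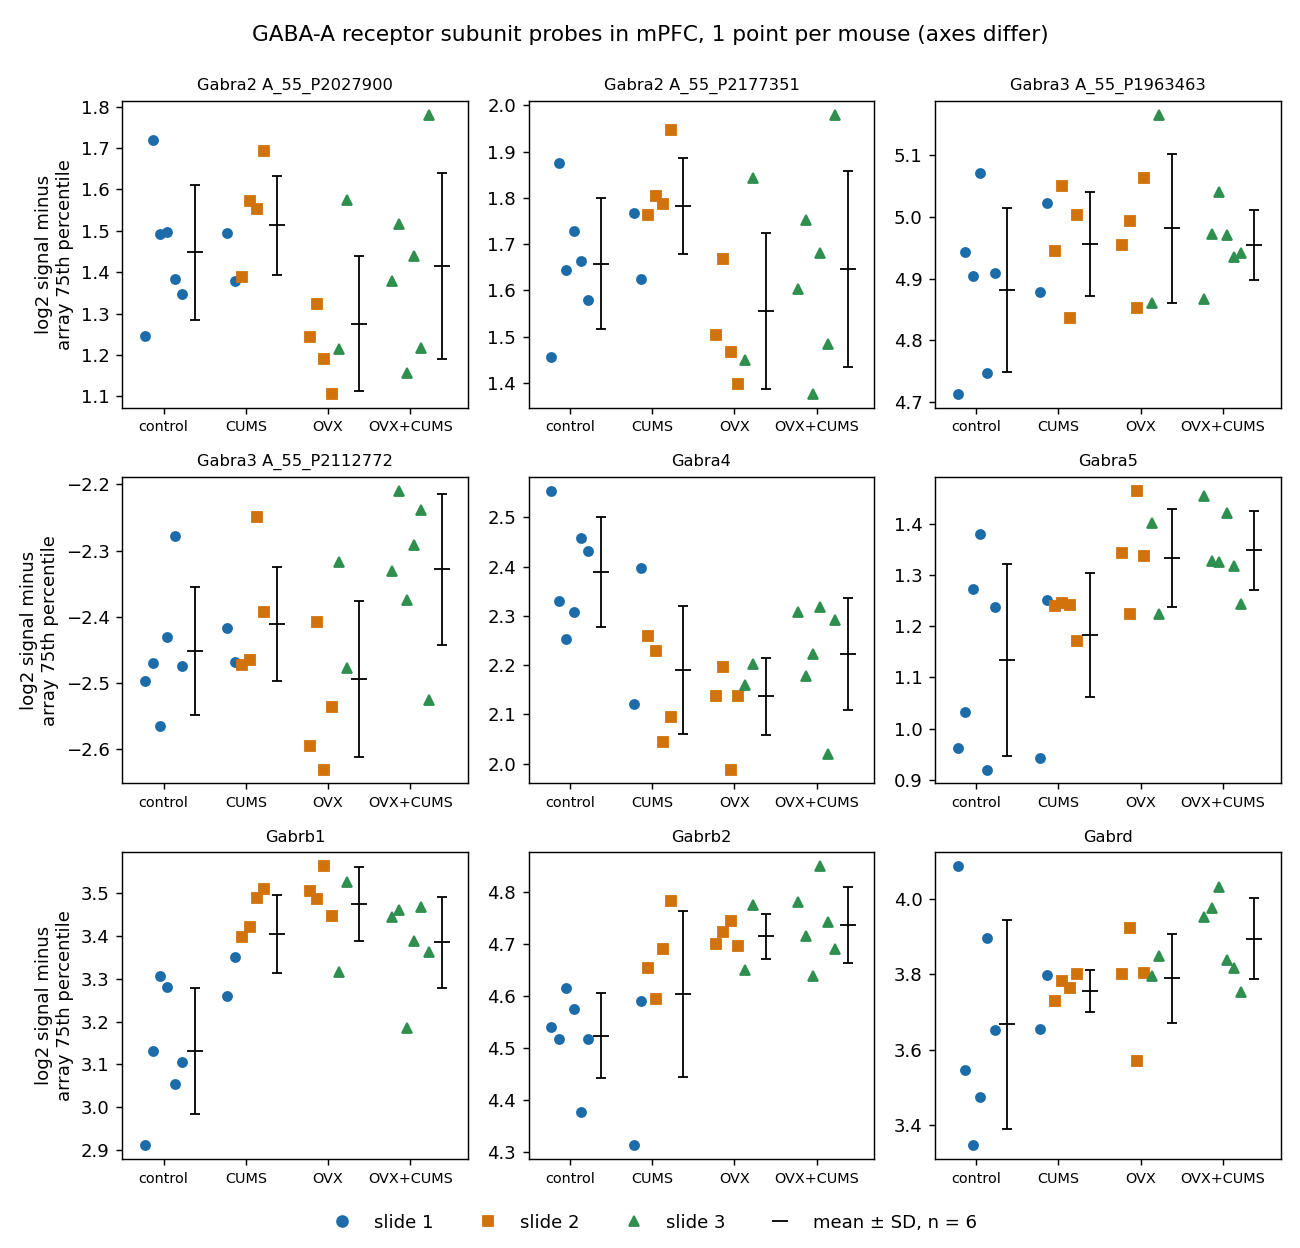
Log2 signal minus the array's 75th percentile (y axis, a scale of its own in each panel) of the 9 subunit probes in the 4 groups of mPFC arrays (x axis). Each point is 1 mouse, its shape and colour give the slide, and bars are the mean ± SD of 6 mice; all OVX and OVX+CUMS mice lie above the highest control mouse for Gabrb2, and all OVX mice lie below the lowest control mouse for Gabra4.

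Averaged over stressed and unstressed mice, ovariectomy went with higher signal of Gabrb2, Gabrb1 and Gabra5, for Gabrb1 through the unstressed mice alone. The OVX effect was not called for Gabra2, Gabra3, Gabra4 and Gabrd. The OVX effect compares both ovariectomized groups with both sham groups (limma, adjusted over all 28353 detected probes). It was called for 3 of 9 probes, all higher, against a background of 30.9% of all probes (19.1% higher and 11.7% lower), so a share of 33.3% is near that of the array as a whole. The median OVX effect was 0.05 over the 9 probes and 0.04 over all probes. Relative to the spike-in probes (E1A, RNA added before labelling) in place of the 75th percentile, the called probes were other ones: both Gabra2 probes (−0.25 and −0.23, adjusted p = 0.0134 and 0.019, limma) and Gabra4 (−0.23, adjusted p = 0.019) were lower, and Gabra5, Gabrb1 and Gabrb2 were at 0.07, 0.05 and 0.05 and not called. With slide as a block, 0 of the 9 probes and 0% of all probes were called at the adjusted threshold. An unadjusted p under 0.05, which many of 28353 probes reach with no effect at all, was seen for 1879 probes.

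Gabrb2 encodes beta2, the beta subunit of the most common cortical receptor. In control mice its log2 level was 4.38 at the lowest, 4.53 at the median and 4.62 at the highest. OVX mice had 4.65, 4.71 and 4.78, and OVX+CUMS mice had 4.64, 4.73 and 4.85. All 6 OVX mice and all 6 OVX+CUMS mice thus lay above the highest control mouse, as was the case for 11.4% and 8.59% of all detected probes. CUMS mice spread across both, from 4.31 through 4.63 to 4.78. The OVX effect was 0.16 (SE 0.04, adjusted p = 0.0056, limma), which is a 1.12-fold difference. Within CUMS mice the 2 arrays on slide 1 had a mean of 4.45 and the 4 on slide 2 a mean of 4.68, a difference of 0.23 between slides inside 1 group (SE 0.10, adjusted p = 0.150, limma); 16.2% of all probes were called in that contrast, and 0.427% between slides 2 and 3 within OVX mice. Blocking on the slide brought the OVX effect to 0.01 (SE 0.08). The control arrays all lay on slide 1, so for Gabrb2 the slide and the surgery cannot be told apart.

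Gabrb1 encodes beta1, a less abundant beta subunit. Control mice had log2 levels of 2.91, 3.12 and 3.31 (lowest, median, highest), and every other group lay higher. CUMS mice had 3.26, 3.41 and 3.51, OVX mice 3.32, 3.50 and 3.56, and OVX+CUMS mice 3.18, 3.42 and 3.47. Above the highest control mouse were 5 of 6 CUMS, 6 of 6 OVX and 5 of 6 OVX+CUMS mice. All 6 OVX mice lay above every control mouse for 11.4% of all detected probes. The means were 3.13 ± 0.15 (SD, n = 6) in control, 3.40 ± 0.09 in CUMS, 3.47 ± 0.09 in OVX and 3.39 ± 0.11 in OVX+CUMS mice, so the 3 treated groups lay within about 1 SD of each other. The OVX effect was 0.16 (SE 0.05, adjusted p = 0.0104, limma) and the CUMS effect was 0.09 (SE 0.05, adjusted p = 0.233). Both are averages over unlike cases. Ovariectomized mice were higher without stress (means of 3.47 and 3.13) but not under stress (3.39 and 3.40).

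Gabrb1 was also the only subunit probe with a called interaction between ovariectomy and stress. The interaction is the CUMS difference in ovariectomized mice minus that in sham mice. It was −0.36 for Gabrb1 (SE 0.09, adjusted p = 0.0369, limma), which made 1 of 9 probes against a background of 4.47% of all probes (3.35% higher and 1.12% lower). The adjusted p rested close to the threshold: over 24 fits that each left out 1 array it ran from 0.00954 to 0.0782 and passed in 11. The call was lost without any one of the 8 arrays of slide 2 (CUMS replicates 3 to 6 and OVX replicates 1 to 4), of control replicates 1, 5 and 6, or of OVX+CUMS replicates 1 and 3, while the interaction itself stayed between −0.40 and −0.32. Blocking on the slide, the interaction was −0.21 (SE 0.13, adjusted p = 1.00, limma) and the OVX effect was 0.12 (SE 0.10). Within slide 1, the 2 CUMS arrays lay 0.17 above the 6 control arrays (SE 0.11, adjusted p = 0.956), the same direction as in the whole data, and 0 of 28353 probes were called in that contrast, with 1422 at an unadjusted p under 0.05.

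Gabra5 encodes alpha5, a subunit known mainly from extrasynaptic receptors on pyramidal cells. Its log2 level was 0.92, 1.14 and 1.38 in control mice (lowest, median, highest) and 0.94, 1.24 and 1.25 in CUMS mice. In ovariectomized mice it was 1.22, 1.34 and 1.47 without stress and 1.24, 1.33 and 1.46 with it. The groups overlapped, because 2 of 6 OVX and 2 of 6 OVX+CUMS mice exceeded the highest control mouse. The lowest ovariectomized mouse, at 1.22, lay above 3 control mice and 2 CUMS mice. The OVX effect was 0.18 (SE 0.05, adjusted p = 0.0105, limma), a 1.14-fold difference, and 0.12 (SE 0.12) with slide as a block. On slide 2, the only slide that held both sham and ovariectomized mice, CUMS mice lay 0.12 below OVX mice (SE 0.06, adjusted p = 0.338, limma). That contrast differs in both surgery and stress.

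The other alpha subunits did not share this pattern. Gabra4 encodes alpha4, the usual partner of delta outside synapses in forebrain. Its log2 level was highest in control mice, at 2.25, 2.38 and 2.55 (lowest, median, highest). CUMS mice had 2.04, 2.17 and 2.40, OVX mice 1.99, 2.15 and 2.20, and OVX+CUMS mice 2.02, 2.26 and 2.32. All 6 OVX mice lay below the lowest control mouse, as was the case for 9.64% of all detected probes. The OVX effect of −0.11 (SE 0.05, adjusted p = 0.0711, limma) and the interaction of 0.28 (SE 0.09, adjusted p = 0.0696) missed the threshold, but the OVX effect passed at −0.14 under quantile normalization (adjusted p = 0.0252) and with the percentile over detected probes (adjusted p = 0.0247), and changed sign to 0.01 under normexp background correction. In the fit blocked on the slide it was −0.09 (SE 0.10), and the interaction 0.17 (SE 0.13). OVX mice alone against control mice passed in the methods' one-way analysis followed by Tukey's comparison, each at 0.05. No share over all probes is given for that comparison.

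Gabra2 encodes alpha2, a synaptic subunit associated with anxiety-related circuits. By A_55_P2177351, the brighter of the pair, control mice had log2 levels of 1.46, 1.65 and 1.88 (lowest, median, highest), CUMS mice 1.62, 1.78 and 1.95, OVX mice 1.40, 1.48 and 1.84, and OVX+CUMS mice 1.38, 1.64 and 1.98. The OVX effect was −0.12 (SE 0.06, adjusted p = 0.168, limma) by this probe and −0.14 (SE 0.07, adjusted p = 0.138) by the other. Under normexp it passed by the first, at −0.18 (adjusted p = 0.0204), and not by the other. The OVX effects blocked on the slide were −0.30 (SE 0.14) and −0.33 (SE 0.15). CUMS mice, with a mean of 1.78, were also set against OVX mice, with a mean of 1.55, on the slide that held both, a contrast that differs in both surgery and stress and belongs to neither alone. On slide 2 the 4 CUMS mice had log2 levels of 1.76 to 1.95 and the 4 OVX mice of 1.40 to 1.67, with no overlap, as for 4.58% of all detected probes. CUMS minus OVX on slide 2 was 0.32 (SE 0.07, adjusted p = 0.0987, limma) by A_55_P2177351 and 0.34 (SE 0.07, adjusted p = 0.100) by A_55_P2027900, the largest of the subunit probes there, and neither passed; 12 of 28353 probes (0.0423%) did.

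Gabra3 encodes alpha3, abundant early in cortical development. The bright probe ran from 4.71 to 5.07 in control mice and from 4.84 to 5.16 in the other groups, with an OVX effect of 0.05 (SE 0.04, adjusted p = 0.416, limma; 95% interval −0.04 to 0.14). The dim, purine-rich probe had a signal of 100 to 138, against 16422 to 22574 for the bright one. Its OVX effect was 0.02 (SE 0.04, adjusted p = 0.762) and its CUMS effect 0.10 (SE 0.04, adjusted p = 0.157). The deviations of the pair from their group means did not run together over the 24 arrays (Pearson's r = −0.20), unlike those of the Gabra2 pair (r = 0.97), so the Gabra3 probes are reported separately.

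Gabrd encodes delta, the subunit of neurosteroid-sensitive tonic receptors. Its log2 level was 3.35, 3.60 and 4.09 in control mice (lowest, median, highest), the widest group of any subunit probe, with an SD of 0.28. CUMS mice had 3.66, 3.77 and 3.80, OVX mice 3.57, 3.80 and 3.92, and OVX+CUMS mice 3.75, 3.89 and 4.03. No mouse of another group lay outside the range of the control mice. The OVX effect was 0.13 (SE 0.06, adjusted p = 0.131, limma; 95% interval −0.0032 to 0.265) and 0.07 (SE 0.15) with slide as a block. Without control replicate 1, the mouse with the highest level, the OVX effect was 0.17 with an adjusted p of 0.0196. The CUMS effect was 0.10 (SE 0.06, adjusted p = 0.388).

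**Figure D2:**
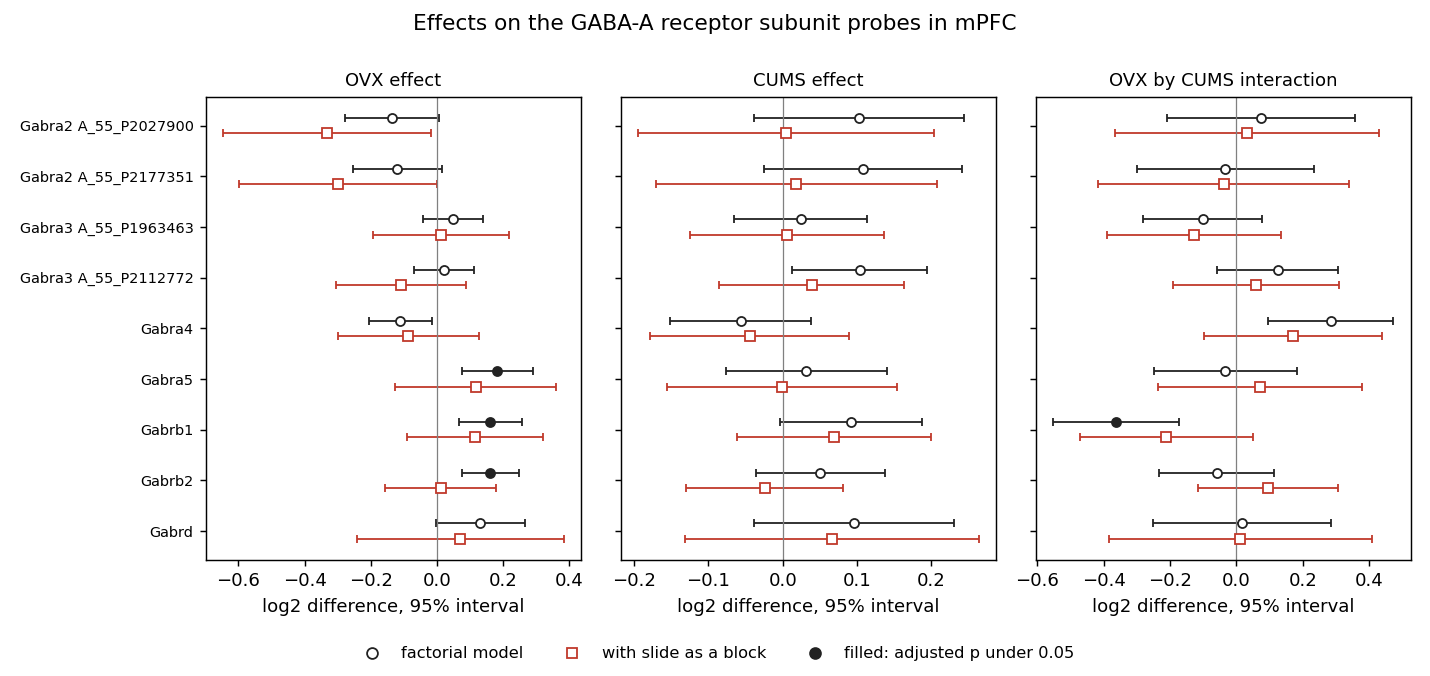
Log2 differences with 95% intervals (x axis) for the 9 subunit probes (y axis) for the OVX effect, the CUMS effect and their interaction, from the factorial model (circles) and with slide as a block (squares); filled symbols have an adjusted p under 0.05. The OVX effects of Gabra5, Gabrb1 and Gabrb2 and the interaction of Gabrb1 are filled; no square is, and the square of Gabrb2 for OVX sits at 0.01.

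The CUMS effect was not called for any subunit probe. The CUMS effect, both stressed groups against both unstressed ones, was called for 0 of 9 probes (limma; 1 had an unadjusted p under 0.05, the dim Gabra3 probe) against a background of 4.2% of all probes (2.33% higher and 1.87% lower). The effects ran from −0.06 for Gabra4 to 0.11 for Gabra2, with a median of 0.09 over the 9 probes and 0.01 over all probes. In the methods' one-way analysis with Tukey's comparison, CUMS minus control passed for Gabrb1, which was higher (means of 3.40 and 3.13), and for Gabra4, which was lower (means of 2.19 and 2.39). The one-way analysis itself passed 9733 of 28353 probes. No share over all probes is given for Tukey's comparison of CUMS and control mice, so these passes are not read as a result about the subunits. All control arrays were on slide 1, and 4 of the 6 CUMS arrays were on slide 2. Between those slides, within CUMS mice, 16.2% of all probes were called (limma). Within slide 1, where 2 CUMS arrays lay beside the controls, the difference of Gabra4 was −0.13 (SE 0.10, adjusted p = 0.964, limma), and 0 of 28353 probes were called. Relative to the spike-in probes, 8 of the 9 CUMS effects changed from above to below 0, and Gabra4 was called at −0.19 (adjusted p = 0.0489). That scaling moved the median of all probes to −0.07 for OVX, −0.12 for CUMS and −0.19 for OVX+CUMS minus control, so effects given here are relative to the bulk of the array. The split of calls over all probes moved with it: 5423 higher and 3327 lower for OVX became 178 and 5038 relative to the spike-in probes and 3676 and 3899 with the percentile taken over detected probes. For CUMS 662 and 529 became 53 and 5988, and 526 and 692. For OVX+CUMS minus control 5787 and 3692 became 123 and 9768, and 3950 and 4448.

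Mice with both treatments were compared with control mice. OVX+CUMS mice had higher signal for 3 of 9 probes, against a background of 33.4% of all probes (20.4% higher and 13% lower), and 6 were not called. Gabrb1 was higher by 0.25 (SE 0.07, adjusted p = 0.00468, limma; exact permutation test, two-sided p = 0.0108), but by 0.0086 relative to the spike-in probes (adjusted p = 0.949) and by 0.18 with slide as a block (adjusted p = 0.957). Gabrb2 was higher by 0.21 (SE 0.06, adjusted p = 0.00829; exact permutation p = 0.00216, the smallest that 6 against 6 mice allow), but lower by 0.03 relative to the spike-in probes and by 0.01 with slide as a block. Gabra5 was higher by 0.21 (SE 0.07, adjusted p = 0.028; exact permutation p = 0.0346), but lower by 0.03 relative to the spike-in probes. The Gabra5 call was also lost under normexp (0.14, adjusted p = 0.121, limma), with the percentile over detected probes (0.17, adjusted p = 0.0693), without a detection filter (adjusted p = 0.0663), with slide as a block (0.12, adjusted p = 0.98), and without control replicate 1, 2 or 5 or OVX+CUMS replicate 1 or 4. Gabrd had a difference of 0.23 (SE 0.09, adjusted p = 0.06; exact permutation p = 0.0931) and Gabra4 one of −0.17 (SE 0.06, adjusted p = 0.0505; exact permutation p = 0.026). The difference of Gabra4 passed at −0.21 under quantile normalization (adjusted p = 0.0177, limma) and with the percentile over detected probes (adjusted p = 0.0155), and was −0.0056 under normexp. Relative to the spike-in probes the 3 called probes were other ones, all lower: Gabra4 at −0.41 (adjusted p = 0.00165, limma) and the Gabra2 probes at −0.28 and −0.26 (adjusted p = 0.0335 and 0.0457). The exact tests covered 9 probes and are not adjusted. Without OVX+CUMS replicate 6 the count was 6 of 9 in place of 3, and the 3 added were Gabrd, Gabra4 and the dim Gabra3 probe. Without control replicate 2 the count was 2, and over all arrays left out in turn it ran from 2 to 6. In those fits 8327 to 10075 probes of the whole array were called for this contrast, with 28310 to 28544 detected. One OVX+CUMS mouse stood apart in neutrophil genes: the summed log2 level of 4 neutrophil probes was 2.88 in it, against at most 0.52 in the other groups. Without that mouse, replicate 5, the counts called were 3 for OVX, 3 for this contrast, 0 for CUMS and 2 for the interaction, where Gabra4 joined Gabrb1 at 0.32. Over the whole array, 904 probes were called for CUMS and 901 for the interaction in that fit.

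Gabrb1 and Gabra4 went opposite ways from mouse to mouse, most clearly among the control mice. Whether the overlap of their transcripts plays a part was not tested. The control mouse with the lowest Gabrb1 level, 2.91, had the highest Gabra4 level of all 24 mice, 2.55, and the control mouse with the highest Gabrb1 level, 3.31, had the lowest Gabra4 level of the controls, 2.25. All controls were on slide 1. The pattern was looser elsewhere: the CUMS mouse with the lowest Gabrb1 level, 3.26, had a Gabra4 level of 2.12, below its group mean of 2.19. Over deviations from the group means of all 24 arrays, Pearson's r was −0.54 for this pair. Gabrb1 went with Gabrb2 (r = 0.63) and Gabra5 (r = 0.54), whereas Gabrd went with Gabra4 (r = 0.58) and against Gabrb1 (r = −0.60) and Gabra5 (r = −0.51). Of 34 pairs of probes of different genes, 15 had r above 0 and the median r was −0.04. The arrays share slides, so these values describe the arrays and carry no test.

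**Figure D3:**
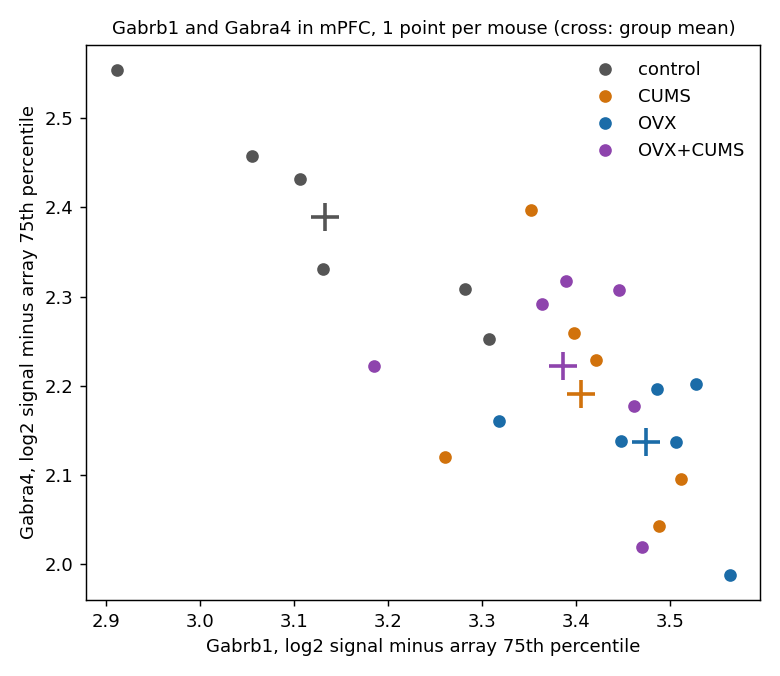
Log2 signal minus the array's 75th percentile of Gabrb1 (x axis) and Gabra4 (y axis) in mPFC, 1 point per mouse, with crosses at the group means. Control mice lie at the upper left, at means of 3.13 and 2.39, and OVX mice at the lower right, at means of 3.47 and 2.14.

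The genes most like each subunit over the 24 mPFC arrays, by Pearson's r of deviations from group means among 28353 probes, were mostly not subunits. Gabra2 was most like Acvr1c (r = 0.83), its neighbour on chromosome 5 Gabrg1 (r = 0.82) and Otud1 (r = 0.81). Gabrb1 was most like Smyd3 (r = 0.90), Cand1 (r = 0.89) and Akap11 (r = 0.87), and Gabrb2 was most like Ndufa9 (r = 0.88), Coro2b (r = 0.87) and Rab5a (r = 0.87). Gabra4 was most like Cap2 (r = 0.85), Pcgf5 and Kalrn, Gabra5 like Dgat2 (r = 0.85) and Rnaseh2a, and Gabrd like Slc30a3 (r = 0.85), Syt12 and Wnt10a. Among the genes most like the bright Gabra3 probe were Pcdh19 and Vps13d. These genes were picked as the highest of 28353 probes over 24 arrays that share slides. High values are thus partly a result of the choice, and they carry no test.

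The remaining subunit genes were read by 20 probes of 12 genes, and 13 probes of 8 genes were detected in mPFC. The brighter probe of Gabrg1, the gamma1 subunit, had an OVX effect of 0.06 (adjusted p = 0.468, limma). Of the 13 probes, 0 were called higher and 2 lower after ovariectomy, with a median of 0.06. The background was 19.1% of all probes higher and 11.7% lower, so the share lower is near that of the array as a whole. The 2 lower probes were Gabrr1, by −0.33 (SE 0.10, adjusted p = 0.0152, limma), and Gabrr2, by −0.28 (SE 0.07, adjusted p = 0.00372). Both genes encode rho subunits known best from the retina. With slide as a block the effects were 0.18 and −0.02. Gabre, the epsilon subunit, had a called interaction of 1.21 by 1 dim probe (SE 0.31, adjusted p = 0.0386, limma), which was −0.08 with slide as a block. That made 1 of 13 probes called for the interaction, against a background of 4.47% of all probes. The probes of Gabrr1, Gabrr2 and Gabre called here were above background on all 24 blood arrays too. Gabrg3, the gamma3 subunit, had 3 detected probes with OVX effects of 0.05, 0.15 and 0.21 (adjusted p = 0.369, 0.097 and 0.137). Gabra6, Gabrq, Gabrp and Gabrr3 were not detected.

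Proteins that place and move the receptor were read by 36 detected probes of 22 genes, and 6 probes rose after ovariectomy and 0 fell, with a median of 0.03, against a background of 19.1% of all probes higher. Among them were Hap1, which returns receptors to the membrane, at 0.36 by 1 probe (SE 0.14, adjusted p = 0.0479, limma) and 0.20 by the other (adjusted p = 0.245), the synaptic adhesion molecule Slitrk3 at 0.17 (SE 0.05, adjusted p = 0.0115), and Clptm1, which holds receptors in the endoplasmic reticulum, at 0.13 (SE 0.03, adjusted p = 0.00549). Blocked on the slide, the 3 called effects were 0.01, 0.04 and 0.18. Both probes of Plcl1, a phospholipase-related protein that binds beta subunits, rose with CUMS by 0.23 (adjusted p = 0.0323 and 0.025, limma; 0.08 and 0.18 with slide as a block). Gabarap, a receptor-associated trafficking protein, had the only probe of the 36 with a called interaction, −0.36 (SE 0.09, adjusted p = 0.034; −0.16 with slide as a block), whereas both of its other probes were at −0.14 (adjusted p = 0.284 and 0.538). The called probe's means of 3.49 in control, 3.66 in CUMS, 3.72 in OVX and 3.54 in OVX+CUMS mice had control mice lowest, as for Gabrb1.

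Genes of GABA synthesis, uptake and breakdown were read by 10 detected probes, of which 5 rose after ovariectomy and 0 fell, with a median of 0.11, against the same background of 19.1%. The other 5, those of the synthesis enzymes among them, were not called. Slc6a11, the astrocyte transporter GAT-3, had an OVX effect of 0.36 (SE 0.10, adjusted p = 0.00881, limma), and Aldh5a1, the last enzyme of GABA breakdown, one of 0.14 (SE 0.04, adjusted p = 0.00712). Blocked on the slide, they were 0.10 and −0.04. Genes that set the chloride gradient gave 2 higher and 1 lower of 12 probes: the kinases Wnk1 at 0.23 (SE 0.04, adjusted p = 0.000182) and Oxsr1 at 0.19 (SE 0.05, adjusted p = 0.00516), and the carbonic anhydrase Car7 at −0.27 (SE 0.09, adjusted p = 0.0193). Each kinase had another probe that was not called, at 0.07 for Wnk1 (adjusted p = 0.367) and 0.03 for Oxsr1 (adjusted p = 0.765). The blocked fit put the called probes of Wnk1 at 0.15, Oxsr1 at 0.36 and Car7 at 0.10. The GABA-B receptor, a G-protein coupled receptor for the same transmitter, gave 2 higher of 9 probes, both of Gabbr1 (0.18 and 0.15, adjusted p = 0.00307 and 0.0389; −0.0028 and 0.01 with slide as a block), while another Gabbr1 probe was at 0.05 (adjusted p = 0.364). Enzymes of neurosteroid synthesis gave 0 called for OVX of 5 detected probes of 4 genes. The largest OVX effect was 0.17 for the mitochondrial protein Tspo (SE 0.07, adjusted p = 0.0777, limma). For OVX+CUMS minus control 1 of the 5 was called, Tspo at 0.31 (adjusted p = 0.0227, limma), against a background of 33.4% of all probes.

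Of the cell type markers given here, those of microglia were called most often for surgery, against 30.9% of all probes. Of 9 microglial probes, 7 were higher and 1 lower after ovariectomy, and their summed log2 level ran from 6.08 to 6.19 over control, 6.06 to 6.40 over CUMS, 6.23 to 6.42 over OVX and 6.19 to 6.50 over OVX+CUMS mice. Markers of excitatory neurons, all 6 genes of which were detected as cortex should have, gave 1 of 9 probes higher for OVX. For CUMS they gave 3 of 9 higher, against a background of 2.33% of all probes higher. Their sums were 6.83 to 7.05 in control mice and 6.88 to 7.24 in the others. Interneuron markers, which include the GABA-synthesizing enzymes, gave 1 higher of 12 for OVX. Markers of astrocytes and oligodendrocytes gave 1 higher of 12 and 1 of 11, and those of thalamus 3 higher of 9. The part of these differences in the subunit values was not tested.

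In blood the subunits were at or near background, with Gabrb2 as the exception. Its signal was 24.6 to 63.1 and well above background on all 24 blood arrays, against 12032 to 17779 in mPFC. Gabrd was above background on 15 of 24 blood arrays, all 6 of control mice, 5 of OVX, 2 of CUMS and 2 of OVX+CUMS mice. Its signal was 6.16 to 23.2, near the dimmest signals that passed on the blood arrays (8.22 to 13.1). The 75th percentile of the blood arrays was 81.3 to 132.4 in control and 54.9 to 104.9 in CUMS mice. It was 110.4 to 191.5 in OVX and 102.8 to 144.4 in OVX+CUMS mice. The part of array brightness in the counts of Gabrd was not tested. The bright Gabra3 probe passed on 1 blood array and the other 6 probes on 0 of 24, which bounds their blood signal and does not show that the RNA is absent. No subunit was tested in blood; for the probes other than Gabrb2 the signal gives mostly a bound and not a level.

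**Figure D4:**
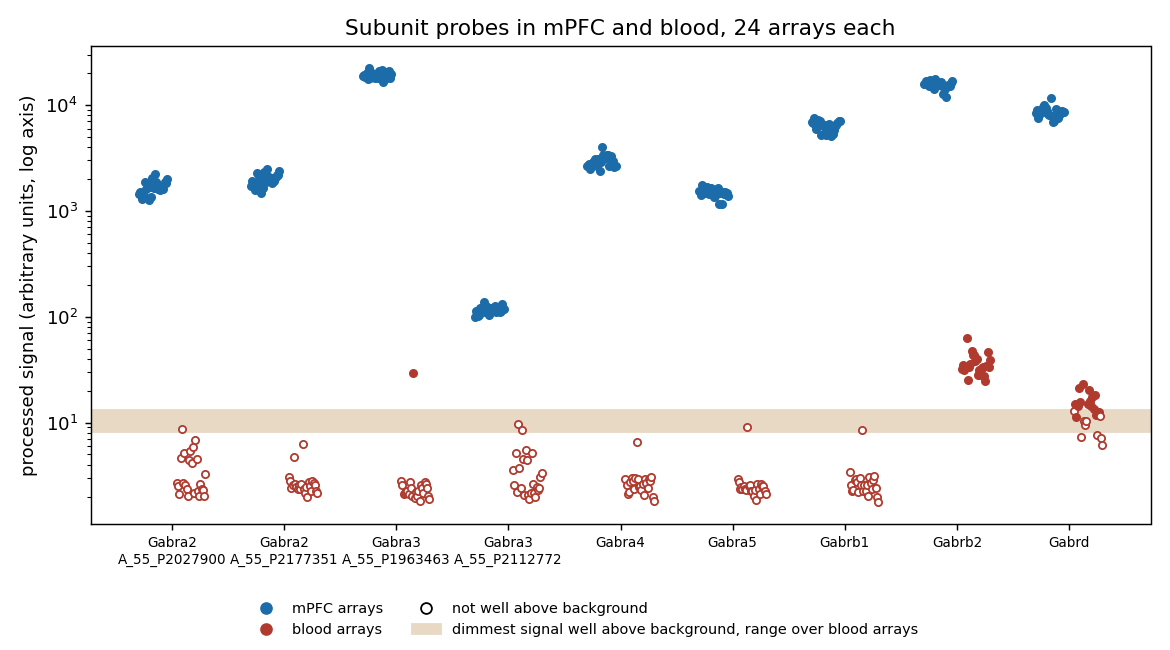
Processed signal in arbitrary units (y axis, log scale) of the 9 subunit probes (x axis) on 24 mPFC and 24 blood arrays; open symbols were not well above background, and the band spans the dimmest passing signals of the blood arrays, 8.22 to 13.1. Every mPFC point is filled, whereas in blood Gabrb2 is filled on all arrays, Gabrd on 15 and Gabra3 on 1.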

How the data were processed

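The authors deposited 48 one-colour arrays, 24 of mPFC and 24 of blood. Intensity values, in arbitrary units, were made by the authors with Agilent Feature Extraction 10.7.3.1 by background subtraction and spatial detrending, with no scaling between arrays. The deposited table of log2 values subtracts each array's 75th percentile; for 100% of 54909 single-spot probes it differed from the values used here by under 0.001 once 1 constant was taken off each array. Its use was limited to an alternative.

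Spots marked as uneven or outliers were left out, copies of a probe were averaged after log2, and the 75th percentile of all non-control probes was subtracted from each array. A probe was detected when it was positive, significant and well above background on all 24 mPFC arrays with a signal over 50 on at least 2. Surgery, stress and their interaction were fitted with limma 3.58.1 (R 4.3.3, the package data.table, version 1.17.8; sequences and figures in Python 3.11.15, pandas 2.3.3 and matplotlib 3.10.9) on all 24 mPFC arrays, with p-values two-sided and adjusted by Benjamini-Hochberg over 28353 probes at 0.05. The spread was moderated with 2.55 prior degrees of freedom. The model was checked on simulated data. OVX+CUMS and control mice were also compared by exact permutation of 6 against 6. Arrays of different mice were the replicates, so p-values cover the spread between mice, and the number of arrays limits the precision. Those without slide as a block, the exact permutation included, do not cover the spread between slides. Replicate numbers do not pair mice across groups.

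The members and gene lists were chosen with earlier results of these data known. Named were every probe of the 7 genes, every other subunit gene, up to 3 called probes of each other list by size of effect, and the 3 genes most like each member; some of these are not reported here. The alternatives comprised quantile normalization, normexp on the mean signal (offset 50), a percentile over the detected probes alone, a spike-in shift, other detection rules, the authors' table, no moderation, slide or replicate number as a block, the mean of a gene's probes, one-way variance analysis with Tukey's comparison, and each array left out. Gene order and promoters are from RefSeq (GRCm38.p6); probe positions are mm9.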

Additional observations from a re-analysis of the deposited data

Results flagged for a closer look

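Within a group of 6 mice, 5 values stood far from the nearest of the others by Dixon's criterion, among 36 combinations of probe and group; chance marks about 1 in 20. They were the dim Gabra3 probe in CUMS replicate 5, at a log2 level of −2.25, Gabra4 in OVX replicate 3, at 1.988, Gabra5 in CUMS replicate 1, at 0.9426, Gabrb1 in OVX+CUMS replicate 3, at 3.184, and Gabrd in OVX replicate 3, at 3.57. OVX replicate 3 appears for both Gabra4 and Gabrd, and it was low in each. Without it, the OVX effect of Gabrd was 0.15, with an adjusted p of 0.0784 (limma), in place of 0.13 and 0.131.

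The effect of CUMS on Gabrb1 differed between sham and ovariectomized mice, by an interaction of −0.36 with an adjusted p of 0.0369 (limma). With slide as a block it was −0.21, with an adjusted p of 1.00.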

How the results depend on the processing

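Of the 9 probes, the 3 called for OVX became 1 when a probe had to be detected on all 48 arrays, since only Gabrb2 of the members passes in blood, and 0 with slide as a block. For OVX+CUMS minus control the 3 became 1 and 0 under the same settings. The 1 interaction became 0 relative to the spike-in probes, without a detection filter, with detection on all 48 arrays, with slide as a block and with the replicate number as a block, where Gabrb1 had an adjusted p of 0.055 (limma). The methods' one-way analysis with Tukey's comparison called 2 of 9, Gabrb1 and Gabrb2, for OVX+CUMS minus control, against 7694 of 28353 probes. It also passed Gabrb1 and Gabra4 for CUMS minus control and Gabrb1, Gabrb2 and Gabra4 for OVX minus control. No share over all probes is given for CUMS minus control or OVX minus control, so these passes cannot be set against the array as a whole. The factorial OVX effect was called for 30.9% of all probes (limma). The 0 called for CUMS became 1, Gabra4 at −0.19, relative to the spike-in probes. Detection on all 48 arrays left 18124 of the 28353 probes. Replicate numbers did not pair mice (r −0.23 to 0.391 over 36 pairs of groups and numbers, and 7 of 24 arrays closest to their own number), and the block with them left 3, 0 and 4 probes called for OVX, CUMS and OVX+CUMS minus control. With each array left out, 3 to 4 probes were called for OVX, 0 for CUMS, 0 to 2 for the interaction and 2 to 6 for OVX+CUMS minus control, and 28310 to 28544 were detected; Gabra5, Gabrb1 and Gabrb2 passed for OVX in all 24 of these fits. Over all probes, leaving out an array moved the count for OVX between 7634 and 9460 and for OVX+CUMS minus control between 8327 and 10075. The count for CUMS moved between 231 and 3327 and that for the interaction between 1 and 3853. Those 2 counts were highest without CUMS replicate 1 or 2, which lay on slide 1 (3258 and 3327 for CUMS, 3853 and 3332 for the interaction). The count of 1266 for the interaction became 615 with the replicate number as a block, 716 without moderation, and 1 without a detection filter, where the 1191 for CUMS became 25.

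These changes of direction were seen, none of them in a value past the threshold apart from those of Gabra5 and Gabrb2 for OVX+CUMS minus control; the cause was not tested. Relative to the spike-in probes, the CUMS effects became −0.0276 and −0.0221 for Gabra2, −0.106 and −0.0263 for Gabra3, −0.0978 for Gabra5, −0.0378 for Gabrb1, −0.0791 for Gabrb2 and −0.0339 for Gabrd. In that setting the OVX effects of Gabra3 became −0.0661 and −0.0948, the interaction of Gabrd −0.00734, and OVX+CUMS minus control −0.172 and −0.121 for Gabra3, −0.0301 for Gabra5, −0.0330 for Gabrb2 and −0.0181 for Gabrd. Blocking on the slide, the OVX effect of the dim Gabra3 probe became −0.109, the CUMS effects −0.000958 for Gabra5 and −0.0245 for Gabrb2, the interactions 0.0711 for Gabra5 and 0.0961 for Gabrb2, and OVX+CUMS minus control −0.0702 for the dim Gabra3 probe and −0.0136 for Gabrb2. Under normexp, the OVX effect of Gabra4 became 0.00613 and the interactions 0.0475 for Gabra2 A_55_P2177351, 0.0130 for Gabra5 and −0.00763 for Gabrd. The percentile over detected probes turned the OVX effect of the dim Gabra3 probe to −0.0109. The mean of a gene's probes gave interactions of 0.0207 for Gabra2 and 0.0117 for Gabra3. With each array left out, the interaction ran from −0.0994 to 0.0250 for Gabra2 A_55_P2177351, −0.0823 to 0.00982 for Gabra5 and −0.0675 to 0.0806 for Gabrd, and OVX+CUMS minus control from −0.106 to 0.0208 for Gabra2 A_55_P2027900 and −0.0784 to 0.0422 for A_55_P2177351.

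With all arrays and the 75th percentile shift, the effects on the 9 probes were at most 0.36 in size on the log2 scale. The SD of the log2 difference between arrays of 1 group, over all probes, was 0.188 to 0.471. That SD covers single arrays and all probes, so it is not the error of these effects.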
